A study of Mus musculus with 11 samples.

Results

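The 46 genes described here are interferon-stimulated antiviral genes of the mouse, the genes that cells switch on when interferon reports a viral infection. They were chosen by name, with earlier results of these data known, and all 46 were found among the 25562 genes of the expression table. RNA was sequenced from CD8+ T cells, the killer lymphocytes, which were taken from C57BL/6 (inbred) mouse spleens with a kit. After 22 h of pretreatment the cells were activated for 24 h by anti-CD3 at 1 µg/mL, in place of antigen, and anti-CD28 at 0.5 µg/mL, in place of costimulation. The 4 AOAH libraries came from cells given 10 µg/mL of His-tagged recombinant human acyloxyacyl hydrolase (AOAH), a lipase that removes fatty acyl chains, together with ethanol, the control for the lipid. The 3 PC libraries came from cells given 60 µM of PC16:0-20:4 (PC), a phosphatidylcholine carrying palmitic and arachidonic acid, and then the protein buffer, which is PBS with 10% glycerol. Cells of the 4 vehicle libraries had ethanol and that same buffer. No glycerol content is given for the AOAH solution, so an effect of AOAH and one of its buffer cannot be told apart. The labels disagree on whether AOAH was present before or during activation, on plate-bound antibody or beads, and on whether the medium held interleukin-2. They name no interferon treatment. A batch number, 1 to 4, is given for every library, and no PC library has batch 4. Whether libraries came from separate mice or cultures is not stated, so p-values speak only of the spread among these libraries, and that spread may be technical.

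Type I interferons bind the receptor IFNAR1 and IFNAR2 and, through the kinases JAK1 and TYK2, activate STAT2, which works with IRF9 in a complex called ISGF3 that binds interferon-stimulated response elements (ISRE) near its target genes. Interferon gamma, which activated CD8+ T cells secrete, acts through its own receptor and mainly on gamma-activated sites (GAS), and many genes answer to both. The products block viral RNA and protein synthesis, sense foreign nucleic acid, tag proteins with ISG15 or amplify the response itself. T cells also keep a low level of many of these genes without infection.

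Values are in TPM, a unit that corrects for gene length and gives each gene's part of its library's transcripts, so levels may be compared between genes and each value is relative to all other RNA of the library. Sequencing depth is unknown, because TPM keeps none. Between 11423 and 11739 genes reached 1 TPM per library, and libraries of a group correlated at 0.983 to 0.988 across genes (log2 scale). The CD8+ T cell label was checked against Cd3d, Cd3e, Cd3g, Cd8a and Cd8b1. These summed to 1171 to 1204 TPM in AOAH, 1344 to 1384 in vehicle and 1519 to 1559 in PC libraries. A CD4+ T cell list (3 genes) summed to 2.33 to 4.33, 2.63 to 4.37 and 3.51 to 6.86 TPM. Within it Cd4 stayed at or below 0.42 TPM and Foxp3 at or below 1.04, while Zbtb7b ranged from 1.4 to 6.1. By the test described below, 4 of the 5 CD8+ T cell markers were called lower with AOAH (12.1% of all genes) and 5 higher with PC (8.27% of all genes). Among markers of other cells, a plasmacytoid dendritic cell list (4 of 5 genes in the table) summed to 3.96 to 6.32 TPM in AOAH, 8.45 to 10.3 in vehicle and 10.4 to 10.9 in PC libraries, with its defining gene Siglech between 0 and 0.05 TPM. Of its 3 genes tested with AOAH, Ccr9 and Cox6a2 were called lower, with log2 changes of -1.16 and -0.65. Tcf4 went the other way, by 0.41, and was not called. With PC, Cox6a2 was called higher. The B cell list (8 genes) summed to 131 to 140.2, 151 to 156 and 167 to 173 TPM, nearly all of it Ighm, while Cd79a, Ms4a1, Pax5, Ebf1 and Blk stayed at or below 0.50 TPM. The macrophage list (6 genes) summed to 4.23 to 4.79, 4.72 to 8.11 and 5.75 to 7.14 TPM. The part of these marker levels in the results below was not tested.

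Together the 46 genes made up 1292 to 1402 TPM in the AOAH libraries, 1740 to 1789 TPM in the vehicle libraries and 1697 to 1739 TPM in the PC libraries. The AOAH libraries were all below the others, and the PC and vehicle ranges did not meet, though they lay close. Of the 46, 41 to 43 reached 1 TPM in a vehicle library, 41 in each PC library and 37 to 39 in an AOAH library. In vehicle, 4 members averaged at least 100 TPM (Ly6e, Bst2, Sp110 and Sp100), 24 averaged 10 to 100, 14 averaged 1 to 10 and 4 averaged under 1. The spread between replicates was modest: the median coefficient of variation over 42 members was 6.54% in vehicle, 6.34% in PC and 9.95% in AOAH libraries.

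Every gene whose mean reached 1 TPM in the compared libraries was tested with limma on log2(TPM + 1), a scale that understates the change of low genes, and a gene was called at a Benjamini-Hochberg adjusted p under 0.05 over all genes tested. With AOAH the interferon-stimulated genes were lower as a group. Of 40 members tested, 31 were called lower (77.5%), against 12.1% of all 11561 genes tested, and 0 were called higher, against 13.1%. No member was higher at an unadjusted p under 0.05 by limma either, nor called higher in the authors' deposited DESeq2 table. The median change of the 40 was -0.44, against 0.01 for all genes, and 38 of the 40 changes were negative. In 30 members every AOAH library lay below every vehicle library, which held for 13.7% of all genes, and in 0 every AOAH library lay above (15.1% of all genes). A called fall of at least 2-fold on this scale was found in 7 members (Ifit1bl1, Ifit3, Irf7, Ifi213, Samd9l, Rtp4 and Xaf1) and in 0.614% of all genes. The 6 members under the filter were Oas2, Oasl1, Mx1, Rsad2, Ifi44 and Cmpk2; with no filter all 46 were tested, 28 were called lower, 0 higher, and 44 changes were negative. Ifit3b and Oas1a passed the filter only through the vehicle group, where they were high, and both are among the 30 members without overlap. Without them 29 of 38 were called lower, with a median of -0.43, and the median of all 46 with no filter was -0.40. Fewer cells carrying these transcripts and fewer transcripts per cell cannot be told apart in such bulk RNA.

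With PC the calls went both ways, and 28 members were not called. Of 41 tested, 6 were called lower (14.6%) against 11.2% of all 11628 genes tested, and 7 were called higher (17.1%) against 8.27%. The median change was -0.04, against -0.01 for all genes. The libraries did not overlap in 8 members that were lower and 10 that were higher, which held for 21.4% and 17.9% of all genes, and 0 of the called changes reached 2-fold in either direction (0.559% of all genes lower, 0.138% higher). Vehicle 1 to 3 serve in both comparisons, so the 2 sets of changes share their control libraries. Set directly against PC, AOAH was called lower in 27 of 40 members tested (21.5% of all genes) and called higher in 1, Eif2ak2 (24.3% of all genes), with a median difference of -0.38. Ifit3b and Oas1a passed this filter only through the PC group; without them 26 of 38 were called lower. The direct difference was called and at least 2-fold on the same scale in 11 members with AOAH lower (1.7% of all genes) and in 0 with AOAH higher (1.3%). Ifit3b, which passed this filter only through the PC group, is among the 11.

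**Figure D1:**
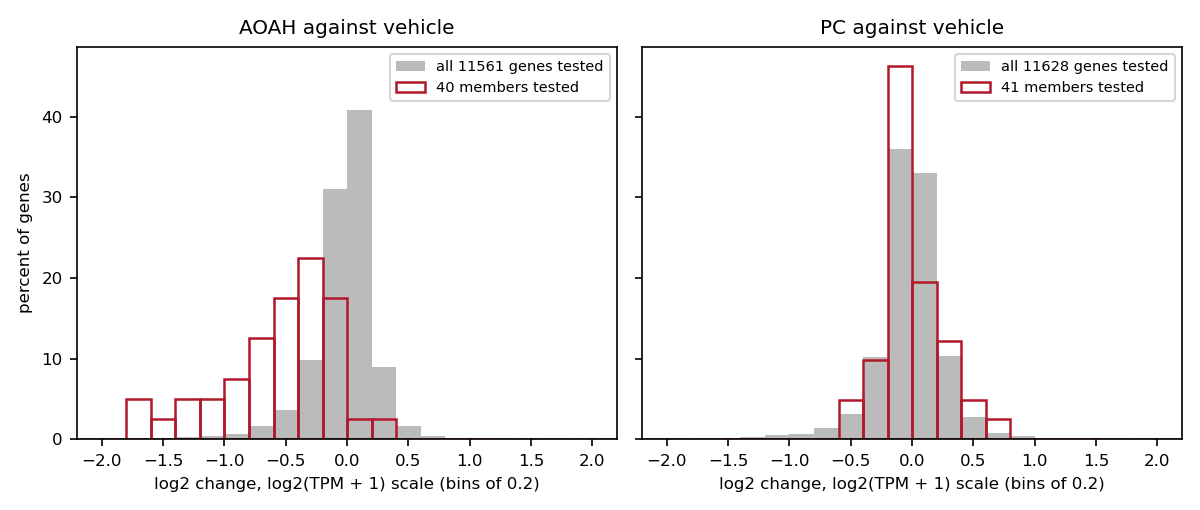
Share of genes (percent, y axis) by log2 change on the log2(TPM + 1) scale (x axis, bins of 0.2) for all genes tested (grey) and the members tested (red outline). With AOAH the outline lies mostly left of zero, with a median of -0.44 over 40 members; with PC it stays around zero, with a median of -0.04 over 41.

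**Figure D2:**
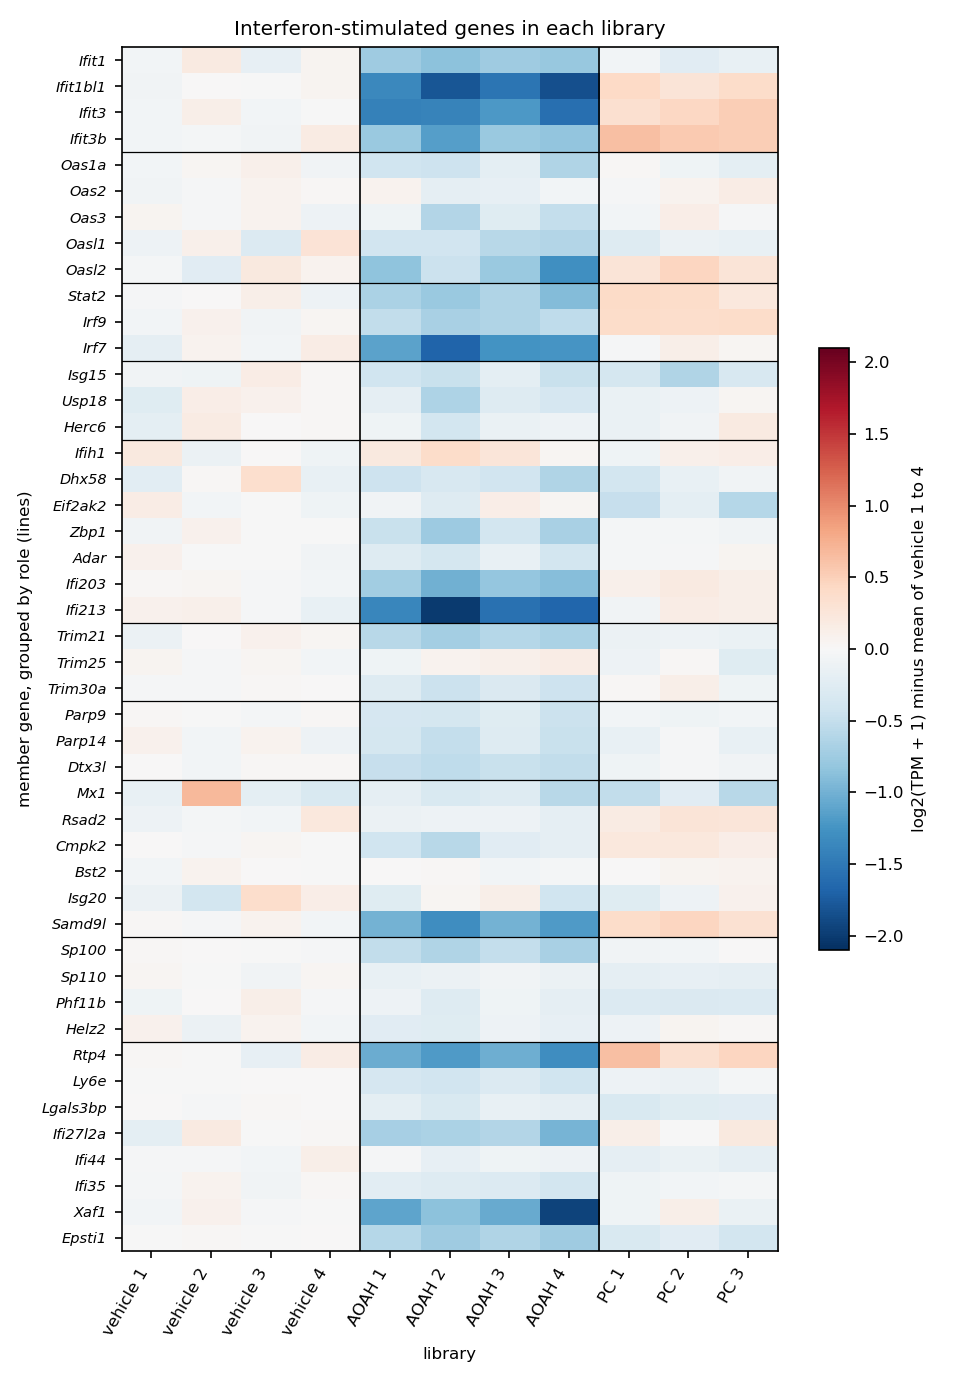
Each row is 1 of the 46 members, grouped by role, and each column 1 of the 11 libraries; colour gives log2(TPM + 1) minus the mean of vehicle 1 to 4. The 4 AOAH columns are blue (lower) in most rows, and the 3 PC columns are red (higher) in Ifit1bl1, Ifit3, Ifit3b, Stat2, Irf9, Samd9l and Rtp4.

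The IFIT proteins bind the ends of foreign RNA and block its translation. The 4 IFIT members all fell with AOAH, and 3 of them rose with PC. Counts by role, here and below, stand beside 12.1% of all genes called lower with AOAH. With PC the shares of all genes were 11.2% lower and 8.27% higher. Ifit3 was at 3.63, 3.70, 4.35 and 3.16 TPM in AOAH 1 to 4, 10.9, 12.4, 10.98 and 11.3 in vehicle 1 to 4 and 14.7, 15.7 and 16.7 in PC 1 to 3. The 3 groups were fully apart, with AOAH lowest and PC highest. Its change was -1.40 ± 0.08 (SE, adjusted p = 1.91e-05) with AOAH and 0.43 ± 0.08 (SE, adjusted p = 0.0104) with PC. Ifit1bl1, a close relative of Ifit1, was at 8.75, 6.20, 7.64 and 5.96 TPM in AOAH 1 to 4, 22.7, 24.1, 23.8 and 24.9 in vehicle 1 to 4 and 32.3, 29.1 and 31.4 in PC 1 to 3. It too kept the order AOAH, vehicle, PC without overlap, falling by 3.35-fold in mean TPM with AOAH. The changes were -1.63 ± 0.10 (SE, adjusted p = 2.47e-05) and 0.38 ± 0.05 (SE, adjusted p = 0.00473). Ifit3b, a copy of Ifit3 in the same gene cluster, was far less abundant, at 0.66, 0.28, 0.66 and 0.61 TPM in AOAH 1 to 4, 1.74, 1.78, 1.73 and 2.24 in vehicle 1 to 4 and 3.42, 3.19 and 3.10 in PC 1 to 3. Again no library of 1 group reached another group. Because this gene passed the filter only through the vehicle group, its AOAH change is given from the fit with no filter, -0.89 ± 0.11 (SE, adjusted p = 0.00254), and its PC change was 0.62 ± 0.09 (SE, adjusted p = 0.0051). Directly against PC, AOAH differed by -1.83 in Ifit3 and -1.99 in Ifit1bl1 (adjusted p = 5.97e-06 and 1.11e-05). For Ifit3b, which passed that filter only through the PC group, the difference with no filter was -1.46 (adjusted p = 0.000231). Ifit1 fell with AOAH, -0.79 (adjusted p = 0.000452), and its change with PC was -0.14 (adjusted p = 0.457). In the reference transcripts 296 stretches of 150 bases were shared by Ifit3 and Ifit3b (18.5% of those in Ifit3 and 16.0% of those in Ifit3b), so reads could have been split between them; Ifit1 and Ifit1bl1 shared 0. With a pseudocount of 5 the AOAH change was -0.31 for Ifit3b, -0.40 for Ifit1 and -0.92 for Ifit3, and the PC change of Ifit3b was 0.29, and with 0.1 the AOAH change of Ifit3b was -1.64, all still called.

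Promoter sequence is shown for 4 members with large changes or a central role, each of which carries the ISRE core in this window. Not every member with a large change carries it. Irf7, Samd9l and Xaf1, with AOAH changes of -1.33, -1.12 and -1.25, had no match in the wider windows described below. The sequences come from RefSeq (build GRCm38.p6, an older build than the mm39 of the expression table) and hold the 200 bases before the transcription start, 5′ to 3′ on the gene's strand. Capitals mark matches to the ISRE core (GAAA, any 2 bases, GAAA) on either strand. Ifit3 lies at chr19:34583329-34583528 (plus strand), Ifit3b at chr19:34607757-34607956 (plus), Ifi213 at chr1:173599273-173599472 (minus) and Isg15 at chr4:156200819-156201018 (minus).
Ifit3: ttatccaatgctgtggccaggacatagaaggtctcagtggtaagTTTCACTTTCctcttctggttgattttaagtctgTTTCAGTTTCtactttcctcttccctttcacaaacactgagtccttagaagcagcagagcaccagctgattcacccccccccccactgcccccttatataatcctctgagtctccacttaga
Ifit3b: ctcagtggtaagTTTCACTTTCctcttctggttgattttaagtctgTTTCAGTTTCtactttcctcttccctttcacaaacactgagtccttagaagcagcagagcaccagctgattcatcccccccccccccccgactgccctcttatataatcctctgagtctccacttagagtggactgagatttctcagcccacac
Ifi213: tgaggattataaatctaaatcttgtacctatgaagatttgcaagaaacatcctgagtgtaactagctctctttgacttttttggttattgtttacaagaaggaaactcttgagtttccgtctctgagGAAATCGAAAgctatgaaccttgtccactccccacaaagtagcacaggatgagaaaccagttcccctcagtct
Isg15: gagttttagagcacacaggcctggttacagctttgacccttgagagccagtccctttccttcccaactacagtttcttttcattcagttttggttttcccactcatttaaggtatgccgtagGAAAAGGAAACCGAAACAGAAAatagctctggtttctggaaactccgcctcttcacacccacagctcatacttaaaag
Ifit3 and Ifit3b hold the same pair of core matches, at -156 and -122 in Ifit3 and at -188 and -154 in Ifit3b, counted from the start to the first base of the match. Ifi213, which fell most with AOAH of all members tested, has 1 match at -73. Isg15 has 3 overlapping matches between -78 and -66. The bases after the RefSeq start were found near the start of a GENCODE M21 transcript for Ifi213 and Isg15 and not for Ifit3 and Ifit3b, so for those 2 genes the distances hold for the RefSeq start alone. The 4 IFIT genes lie within 57.7 kb of chromosome 19 (34583279 to 34640938).

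Over the members, 36 of 46 had a RefSeq window of 250 bases before to 50 bases after a start, and 17 of the 36 (47.2%) held the ISRE core, against 3.99% of the 27025 genes of the table. The GAS motif TTCNNNGAA, its own reverse complement on the other strand, was in 6 of 36 (16.7%), against 9.55%; the GAS match of Bst2 overlaps its ISRE match. Calls were made in members with and without the core. With AOAH, 12 of 16 tested members with the core were called lower (median -0.53), as were 12 of 16 without it (median -0.39) and 7 of 8 with no window in the table. The 12 with the core include Ifit3b and Oas1a, which passed the filter only through the vehicle group, where they were high. These counts stand beside 12.1% of all genes called lower. With PC, 3 members with the core were called lower and 4 higher of 16, 3 and 2 of 17 without it, and 0 and 1 of 8 with no window (all genes, 11.2% lower and 8.27% higher). A match is a description of the letters, not of binding.

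Stat2 and Irf9, both parts of ISGF3, fell with AOAH and rose with PC, and Irf7, the factor that amplifies type I interferon production, fell with AOAH. Stat2 was at 11.4, 10.5, 11.8 and 9.54 TPM in AOAH 1 to 4, 18.3, 18.9, 20.5 and 17.2 in vehicle 1 to 4 and 24.97, 24.8 and 22.02 in PC 1 to 3. Irf9 was at 16.9, 14.9, 15.6 and 16.6 TPM in AOAH 1 to 4, 23.4, 26.1, 23.4 and 25.2 in vehicle 1 to 4 and 32.5, 32.1 and 32.3 in PC 1 to 3. In both genes AOAH lay below and PC above every vehicle library. With AOAH the changes were -0.74 ± 0.08 (SE, adjusted p = 0.000231) for Stat2 and -0.59 ± 0.06 (SE, adjusted p = 0.000169) for Irf9. With PC they were 0.30 ± 0.07 (SE, adjusted p = 0.0266) and 0.40 ± 0.05 (SE, adjusted p = 0.004). The direct differences between AOAH and PC were -1.08 and -0.97 (adjusted p = 3.14e-05 and 6.93e-06). Irf7 was at 3.43, 2.02, 3.07 and 3.11 TPM in AOAH 1 to 4, 7.53, 9.27, 8.35 and 9.83 in vehicle 1 to 4 and 8.56, 9.60 and 8.95 in PC 1 to 3. Its AOAH libraries were at 33.2% of vehicle and its PC libraries lay inside the vehicle range. The changes were -1.33 ± 0.13 (SE, adjusted p = 0.000174) and 0.10 ± 0.09 (SE, adjusted p = 0.479), and the AOAH change was -0.80 with a pseudocount of 5. The PC call of Stat2 was lost in the batch-blocked fit (adjusted p = 0.0802) and, by adjusted p, with PC 1 (0.0811), PC 2 (0.0859), vehicle 1 (0.0872) or vehicle 2 (0.0659) left out.

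**Figure D3:**
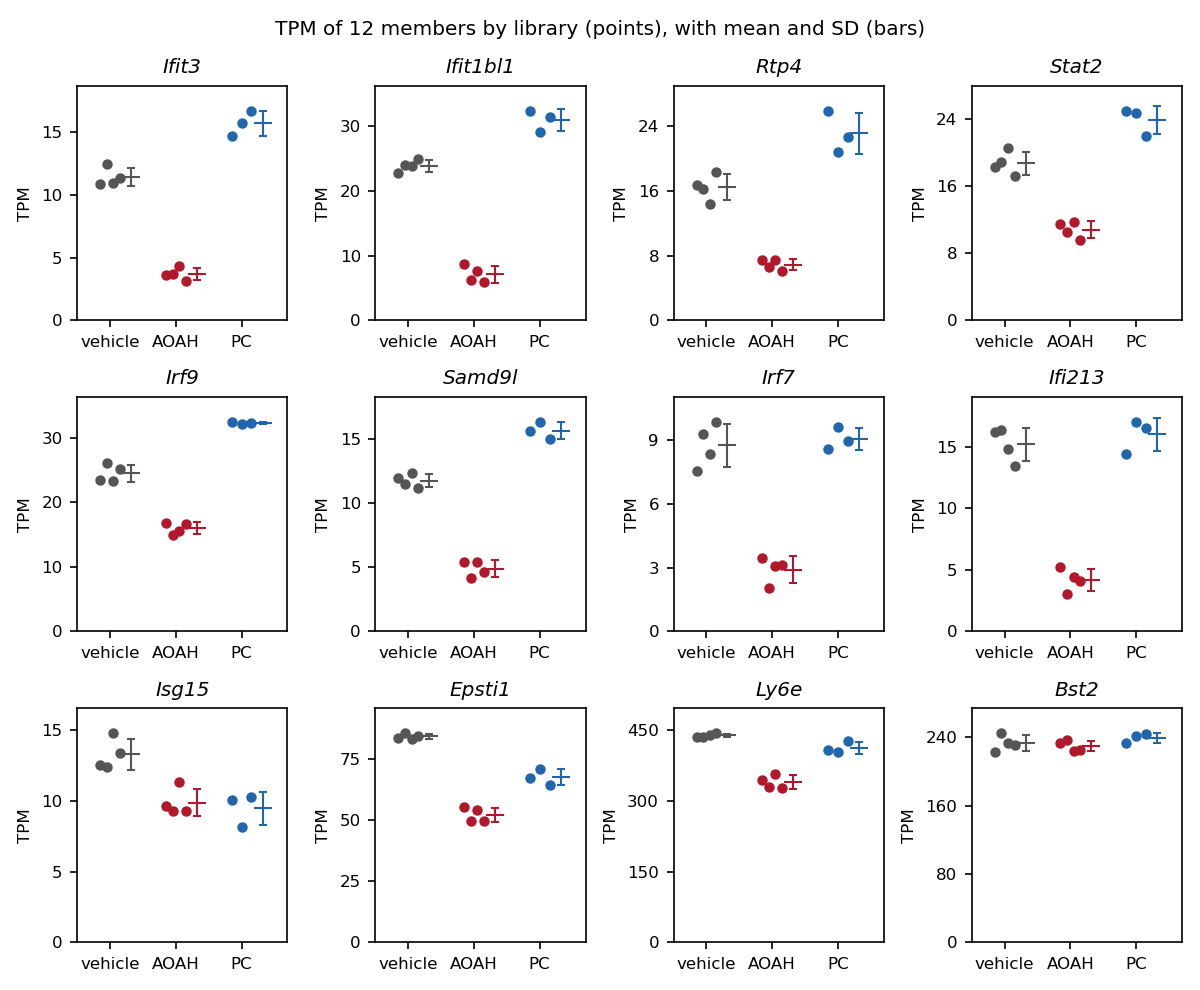
TPM of 12 members in each library (points), with the mean and SD of the group (bars); each y axis is linear and starts at 0. In Ifit3, Ifit1bl1, Rtp4, Stat2, Irf9 and Samd9l the AOAH points lie lowest and the PC points highest, in Isg15 and Epsti1 both treatments lie below vehicle, and in Bst2 all 3 groups overlap between 222 and 245 TPM.

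The 2'-5' oligoadenylate synthetases make the messenger that activates RNase L on double-stranded RNA, and OASL proteins are their relatives. The 3 genes of this family that were tested, Oas1a, Oas3 and Oasl2, were called lower with AOAH, while with PC no call was made among them (unadjusted p under 0.05 by limma in 1 of 3, Oasl2). Oas3 was at 5.01, 3.19, 4.34 and 3.53 TPM in AOAH 1 to 4, 5.66, 5.32, 5.70 and 4.94 in vehicle 1 to 4 and 5.17, 6.04 and 5.30 in PC 1 to 3. The AOAH libraries reached into the vehicle range, as AOAH 1 was above vehicle 4. Oasl2 was at 0.97, 1.60, 1.07 and 0.45 TPM in AOAH 1 to 4, 2.45, 2.03, 3.08 and 2.75 in vehicle 1 to 4 and 3.29, 3.88 and 3.27 in PC 1 to 3, with AOAH below and PC above all vehicle libraries. The AOAH changes were -0.36 ± 0.12 (SE, adjusted p = 0.0463) for Oas3 and -0.84 ± 0.18 (SE, adjusted p = 0.00857) for Oasl2. Oas1a passed the filter only through the vehicle group, and with no filter its change was -0.42 (adjusted p = 0.0427). The PC changes were -0.01 (adjusted p = 0.927) for Oas3, 0.36 (adjusted p = 0.113) for Oasl2 and -0.12 (adjusted p = 0.541) for Oas1a. Oas3 lost its AOAH call, by adjusted p, with AOAH 2 (0.101), AOAH 3 (0.0606), AOAH 4 (0.114), vehicle 1 (0.0956), vehicle 2 (0.0882), vehicle 3 (0.0978) or vehicle 4 (0.063) left out. Oas1a lost it in the batch-blocked fit (adjusted p = 0.0519) and with AOAH 1 (0.0589), AOAH 2 (0.0621), AOAH 4 (0.0728), vehicle 2 (0.0739), vehicle 3 (0.071) or vehicle 4 (0.0515) left out. Oas2 and Oasl1 were not tested, at 0.20 and 0.34 TPM on average in AOAH against 0.27 and 0.92 in vehicle; with no filter the AOAH change of Oasl1 was -0.50 (adjusted p = 0.0591). With a pseudocount of 5 the AOAH change was -0.21 for Oas3 and -0.33 for Oasl2, and with 0.1 it was -1.35 for Oasl2, all still called.

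Isg15 encodes a ubiquitin-like tag, Usp18 the protease that removes it and dampens receptor signalling, and Herc6 a ligase that attaches it in the mouse. Isg15 was called lower with both treatments. It was at 9.61, 9.27, 11.3 and 9.30 TPM in AOAH 1 to 4, 12.5, 12.4, 14.8 and 13.4 in vehicle 1 to 4 and 10.1, 8.15 and 10.2 in PC 1 to 3. Both treated groups lay below all vehicle libraries and overlapped each other. The changes were -0.39 ± 0.08 (SE, adjusted p = 0.00692) with AOAH and -0.44 ± 0.11 (SE, adjusted p = 0.0297) with PC, and the direct difference was 0.05 (95% interval -0.17 to 0.28, adjusted p = 0.688). The PC call was lost, by adjusted p, with PC 1 (0.0551), PC 2 (0.0695), PC 3 (0.052), vehicle 1 (0.0647) or vehicle 3 (0.0867) left out, and the AOAH call in batches 1 to 3 alone (0.0552). Herc6 was at 6.91, 5.48, 6.70 and 6.82 TPM in AOAH 1 to 4, 6.36, 8.52, 7.46 and 7.55 in vehicle 1 to 4 and 6.66, 7.04 and 8.61 in PC 1 to 3, with all groups overlapping; its changes were -0.18 (adjusted p = 0.209) and -0.00075 (adjusted p = 0.997). Usp18 had a change of -0.36 (adjusted p = 0.0539) with AOAH, and -0.05 (adjusted p = 0.798) with PC. Its AOAH change passed the threshold with AOAH 1 (0.0486) or vehicle 1 (0.0243) left out, with a filter at 5 TPM (0.044), in 1 fit over all libraries (0.0324) and with array weights (0.0477).

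Among 7 sensors of foreign or displaced nucleic acid and their regulators, 5 fell with AOAH (12.1% of all genes called lower). Ifi213, of the AIM2-like family encoded in 1 cluster on chromosome 1, had the largest fall of all members. It was at 5.23, 3.02, 4.42 and 4.08 TPM in AOAH 1 to 4, 16.2, 16.3, 14.8 and 13.4 in vehicle 1 to 4 and 14.4, 16.98 and 16.5 in PC 1 to 3. All AOAH libraries lay below all vehicle libraries, and PC and vehicle overlapped. The changes were -1.66 ± 0.13 (SE, adjusted p = 5.32e-05) and 0.02 ± 0.08 (SE, adjusted p = 0.911). Ifi203, of the same family, changed by -0.86 (adjusted p = 3.90e-05) with AOAH, and the reference transcripts of Ifi203 and Ifi213 shared 0 stretches of 150 bases. Zbp1, a sensor of Z-form nucleic acid that can start necroptosis, was the most abundant of the 7, at 49.4, 40.1, 52.4 and 42.5 TPM in AOAH 1 to 4, 65.6, 73.5, 68.0 and 68.3 in vehicle 1 to 4 and 66.5, 66.9 and 65.1 in PC 1 to 3. Adar, the enzyme that edits double-stranded RNA and so hides it from sensors, was at 32.6, 30.5, 35.6 and 30.2 TPM in AOAH 1 to 4, 42.2, 39.2, 39.1 and 37.6 in vehicle 1 to 4 and 38.4, 38.8 and 41.3 in PC 1 to 3. In both genes AOAH lay below vehicle with no overlap and PC overlapped vehicle. Their AOAH changes were -0.58 ± 0.08 (SE, adjusted p = 0.00127) and -0.29 ± 0.06 (SE, adjusted p = 0.00733), and their PC changes -0.06 (adjusted p = 0.444) and -0.03 (adjusted p = 0.761).

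Eif2ak2, the kinase PKR that stops translation on double-stranded RNA, was called lower with PC but not with AOAH. It was at 8.67, 7.43, 10.2 and 9.44 TPM in AOAH 1 to 4, 10.3, 8.79, 9.07 and 8.50 in vehicle 1 to 4 and 6.28, 7.85 and 5.69 in PC 1 to 3. The PC libraries lay below all vehicle libraries and the AOAH libraries overlapped vehicle. The changes were -0.04 ± 0.10 (SE, adjusted p = 0.801) and -0.46 ± 0.12 (SE, adjusted p = 0.0376), and the direct difference between AOAH and PC was 0.39 ± 0.13 (SE, adjusted p = 0.0357). In the batch-blocked fit the PC and the direct calls were lost (adjusted p = 0.0743 and 0.156); the PC call was lost too, by adjusted p, with PC 1 (0.103), PC 3 (0.103), vehicle 1 (0.114), vehicle 2 (0.0606) or vehicle 3 (0.085) left out, and the direct call with AOAH 1 (0.0619), AOAH 3 (0.0802), AOAH 4 (0.0797), PC 1 (0.0992) or PC 3 (0.122) left out. Of the RIG-I-like receptors on the list, Dhx58 (LGP2) changed by -0.45 (adjusted p = 0.0328) with AOAH, a call that was lost with AOAH 1 (0.0611), AOAH 3 (0.059), AOAH 4 (0.0839), vehicle 2 (0.0753) or vehicle 3 (0.052) left out. Ifih1 (MDA5) was the member with the highest AOAH change, 0.22 ± 0.11 (adjusted p = 0.165, 95% interval -0.02 to 0.46), and was not called.

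Of the TRIM ubiquitin ligases, Trim21, the cytosolic receptor for antibody-coated virus, and Trim30a fell with AOAH, and Trim25, which acts on RIG-I signalling, did not pass the test. Trim30a was at 21.3, 18.6, 20.7 and 18.8 TPM in AOAH 1 to 4, 25.5, 25.4, 26.4 and 25.96 in vehicle 1 to 4 and 26.2, 28.2 and 24.2 in PC 1 to 3, with AOAH below all vehicle libraries. Trim25 was at 25.3, 28.4, 29.1 and 30.2 TPM in AOAH 1 to 4, 27.9, 26.3, 27.6 and 25.9 in vehicle 1 to 4 and 24.9, 27.3 and 22.3 in PC 1 to 3, with all groups overlapping. The AOAH changes were -0.37 ± 0.05 (SE, adjusted p = 0.00129) for Trim30a, -0.64 (adjusted p = 0.000127) for Trim21 and 0.07 for Trim25 (95% interval -0.07 to 0.20, adjusted p = 0.453). Parp9 and Dtx3l, which form an ADP-ribosylating ubiquitin ligase complex, and Parp14 fell with AOAH in 3 of 3. Parp9 was at 34.5, 34.01, 36.97 and 32.2 TPM in AOAH 1 to 4, 44.7, 43.8, 42.99 and 44.95 in vehicle 1 to 4 and 42.2, 41.3 and 42.3 in PC 1 to 3. Dtx3l was at 25.2, 24.3, 25.5 and 24.7 TPM in AOAH 1 to 4, 35.95, 34.03, 36.03 and 36.4 in vehicle 1 to 4 and 33.4, 34.96 and 33.6 in PC 1 to 3. For both, the AOAH libraries lay well below the narrow vehicle range, with changes of -0.35 ± 0.05 (SE, adjusted p = 0.000761) and -0.50 ± 0.04 (SE, adjusted p = 5.22e-05); Parp14 changed by -0.40 (adjusted p = 0.00337). With PC no call was made among these 6 genes; the changes ran from -0.15 (Parp14) to 0.02 (Trim30a), and 0 of 6 had an unadjusted p under 0.05.

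The direct effectors gave 1 call of 3 tested with AOAH (12.1% of all genes called lower). Samd9l, which restricts viral translation, was at 5.41, 4.14, 5.42 and 4.60 TPM in AOAH 1 to 4, 11.9, 11.5, 12.3 and 11.2 in vehicle 1 to 4 and 15.6, 16.3 and 14.97 in PC 1 to 3. The 3 groups were apart in the order AOAH, vehicle, PC. Its changes were -1.12 ± 0.08 (SE, adjusted p = 4.77e-05) and 0.37 ± 0.06 (SE, adjusted p = 0.00736), and the direct difference was -1.50 (adjusted p = 1.19e-05). Bst2 (tetherin), which holds budding virions at the cell surface, was the most abundant of this group, at 233, 237, 224 and 225 TPM in AOAH 1 to 4, 222, 245, 234 and 230.4 in vehicle 1 to 4 and 233, 241 and 244 in PC 1 to 3. All groups overlapped, with changes of -0.02 (95% interval -0.09 to 0.06, adjusted p = 0.733) and 0.04 (-0.06 to 0.13, adjusted p = 0.567). Isg20, an RNA exonuclease, changed by -0.13 (adjusted p = 0.64) and -0.05 (adjusted p = 0.895). Mx1 and Rsad2 (viperin) were not tested, with Mx1 between 0.38 and 2.30 TPM over the 11 libraries and Rsad2 at 0.16 TPM on average in vehicle. Cmpk2, a mitochondrial nucleotide kinase, averaged 0.64 TPM in AOAH, 1.09 in vehicle and 1.39 in PC. Its AOAH change with no filter was -0.36 (adjusted p = 0.0681), and its PC change was 0.19 (adjusted p = 0.286). Rsad2 averaged 0.06 TPM in AOAH and 0.36 in PC. Directly against PC with no filter, AOAH was called lower in Cmpk2, -0.55 (adjusted p = 0.0163), and in Rsad2, -0.36 (adjusted p = 0.00514). Mx1 was not called there (adjusted p = 0.637).

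Of the nuclear proteins, Sp100, a nuclear body protein, and Sp110, its relative, were called lower with AOAH, and Sp110 and Phf11b with PC. Sp100 was at 89.9, 83.7, 91.99 and 80.6 TPM in AOAH 1 to 4, 132, 130.0, 129 and 128 in vehicle 1 to 4 and 123, 125 and 130.4 in PC 1 to 3. AOAH lay below all vehicle libraries, with a change of -0.58 ± 0.04 (SE, adjusted p = 4.38e-05), and PC changed by -0.05 (adjusted p = 0.355). Sp110 was at 138, 142, 147 and 143 TPM in AOAH 1 to 4, 159.8, 154, 147 and 159 in vehicle 1 to 4 and 137, 138 and 136 in PC 1 to 3. Both treated groups lay below vehicle, AOAH 3 only just, and the changes were -0.12 ± 0.03 (SE, adjusted p = 0.0262) and -0.17 ± 0.04 (SE, adjusted p = 0.0198). Phf11b was at 14.2, 12.6, 14.3 and 13.2 TPM in AOAH 1 to 4, 14.2, 15.3, 16.7 and 15.02 in vehicle 1 to 4 and 12.3, 12.2 and 12.3 in PC 1 to 3, with PC below every other library and AOAH overlapping vehicle. Its changes were -0.16 ± 0.06 (SE, adjusted p = 0.0923) and -0.30 ± 0.07 (SE, adjusted p = 0.0237). The AOAH call of Sp110 was lost in the batch-blocked fit (adjusted p = 0.0811) and with AOAH 1 (0.0638), AOAH 2 (0.0588), AOAH 4 (0.058), vehicle 1 (0.0644), vehicle 2 (0.0579) or vehicle 4 (0.0697) left out; its PC call was lost with PC 1 (0.058), PC 2 (0.0544), PC 3 (0.0654) or vehicle 1 (0.0592) left out. The PC call of Phf11b was lost with the block (0.0575) and with PC 1 (0.0621), PC 2 (0.0711), PC 3 (0.0709), vehicle 2 (0.0518) or vehicle 3 (0.0664) left out. Helz2, a helicase that serves as a coactivator, changed by -0.19 (adjusted p = 0.067) with AOAH, and was past the threshold with TMM rescaling (0.045) and with vehicle 2 (0.0438) left out.

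All 7 tested members of the last group, induced genes with other roles, fell with AOAH (12.1% of all genes called lower). Rtp4, a chaperone that restrains type I interferon signalling, was at 7.46, 6.61, 7.50 and 6.06 TPM in AOAH 1 to 4, 16.7, 16.3, 14.4 and 18.3 in vehicle 1 to 4 and 25.9, 20.8 and 22.7 in PC 1 to 3. AOAH was lowest and PC highest, without overlap, and the changes were -1.14 ± 0.09 (SE, adjusted p = 5.22e-05) and 0.52 ± 0.09 (SE, adjusted p = 0.0102). Ly6e, a surface protein that impairs the entry of coronaviruses, had the highest level of all 46, at 344, 330.0, 358 and 328 TPM in AOAH 1 to 4, 436, 435, 440.3 and 443 in vehicle 1 to 4 and 407, 404 and 426 in PC 1 to 3. AOAH lay below PC and PC below vehicle in every library. The changes were -0.37 ± 0.03 (SE, adjusted p = 6.27e-05) and -0.08 ± 0.03 (SE, adjusted p = 0.0732); the PC change passed the threshold with vehicle 4 included (adjusted p = 0.0334) and without PC 3 (0.0407). Epsti1 was at 55.1, 49.7, 54.1 and 49.7 TPM in AOAH 1 to 4, 83.2, 85.4, 83.1 and 84.4 in vehicle 1 to 4 and 67.2, 70.9 and 64.4 in PC 1 to 3, again AOAH below PC below vehicle. Lgals3bp, a secreted galectin-binding protein, was at 33.3, 30.6, 34.2 and 33.7 TPM in AOAH 1 to 4, 38.5, 37.7, 39.05 and 38.5 in vehicle 1 to 4 and 30.4, 32.2 and 32.6 in PC 1 to 3, with both treated groups below vehicle and overlapping each other. Epsti1 changed by -0.68 ± 0.04 (SE, adjusted p = 1.91e-05) and -0.31 ± 0.04 (SE, adjusted p = 0.00405), and Lgals3bp by -0.22 ± 0.04 (SE, adjusted p = 0.00581) and -0.27 ± 0.04 (SE, adjusted p = 0.0077). Xaf1, a pro-apoptotic protein, changed by -1.25 (adjusted p = 0.00291) with AOAH and by -0.04 (adjusted p = 0.793) with PC. The AOAH changes of Ifi27l2a and Ifi35 were -0.74 (adjusted p = 0.000864) and -0.29 (adjusted p = 0.00253).

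Set side by side, the called changes fell into a few patterns. The share of all genes with each pattern was not computed. In the single comparisons, 12.1% of all genes were called lower with AOAH, and 11.2% lower and 8.27% higher with PC. Directly, 21.5% of all genes were called lower with AOAH than with PC. Ifit1bl1, Ifit3, Ifit3b, Stat2, Irf9, Samd9l and Rtp4 (7 members) were lower with AOAH and higher with PC, and in all 7 the direct test between the treatments was called. As the 7 were picked by opposite calls against shared vehicle libraries, these direct calls are no separate support. Of the 7, Ifit3b passed the AOAH filter only through the vehicle group and the direct filter only through the PC group. Isg15, Sp110, Lgals3bp and Epsti1 (4 members) were lower with both. Of these, the direct test separated Epsti1, -0.37 (adjusted p = 0.000844), with AOAH lower. For the other 3 it gave 0.05 (95% interval -0.17 to 0.28), 0.06 (-0.01 to 0.12) and 0.05 (-0.06 to 0.17), with adjusted p of 0.688, 0.121 and 0.427. A further 20 were called lower with AOAH alone, and for 18 of them, all but Oas1a and Dhx58, AOAH was also called lower than PC. Of these, the direct call of Oas3 was lost with no filter (adjusted p = 0.0982), in the batch-blocked fit (0.159), with quantile scaling (0.0744) and with AOAH 2 (0.0855), AOAH 3 (0.0548), AOAH 4 (0.0973), PC 1 (0.0719), PC 2 (0.137) or PC 3 (0.0844) left out. Eif2ak2 and Phf11b were called lower with PC alone. Usp18, Herc6, Ifih1, Trim25, Bst2, Isg20 and Helz2 (7 members) were called with neither. The AOAH calls spanned the range of levels: 7 of 12 tested members under 10 TPM in vehicle (Ifit3b and Oas1a among them), 17 of 20 at 10 to 50 TPM and 7 of 8 at 50 TPM or more were called lower, with medians of -0.39, -0.54 and -0.47.

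**Figure D4:**
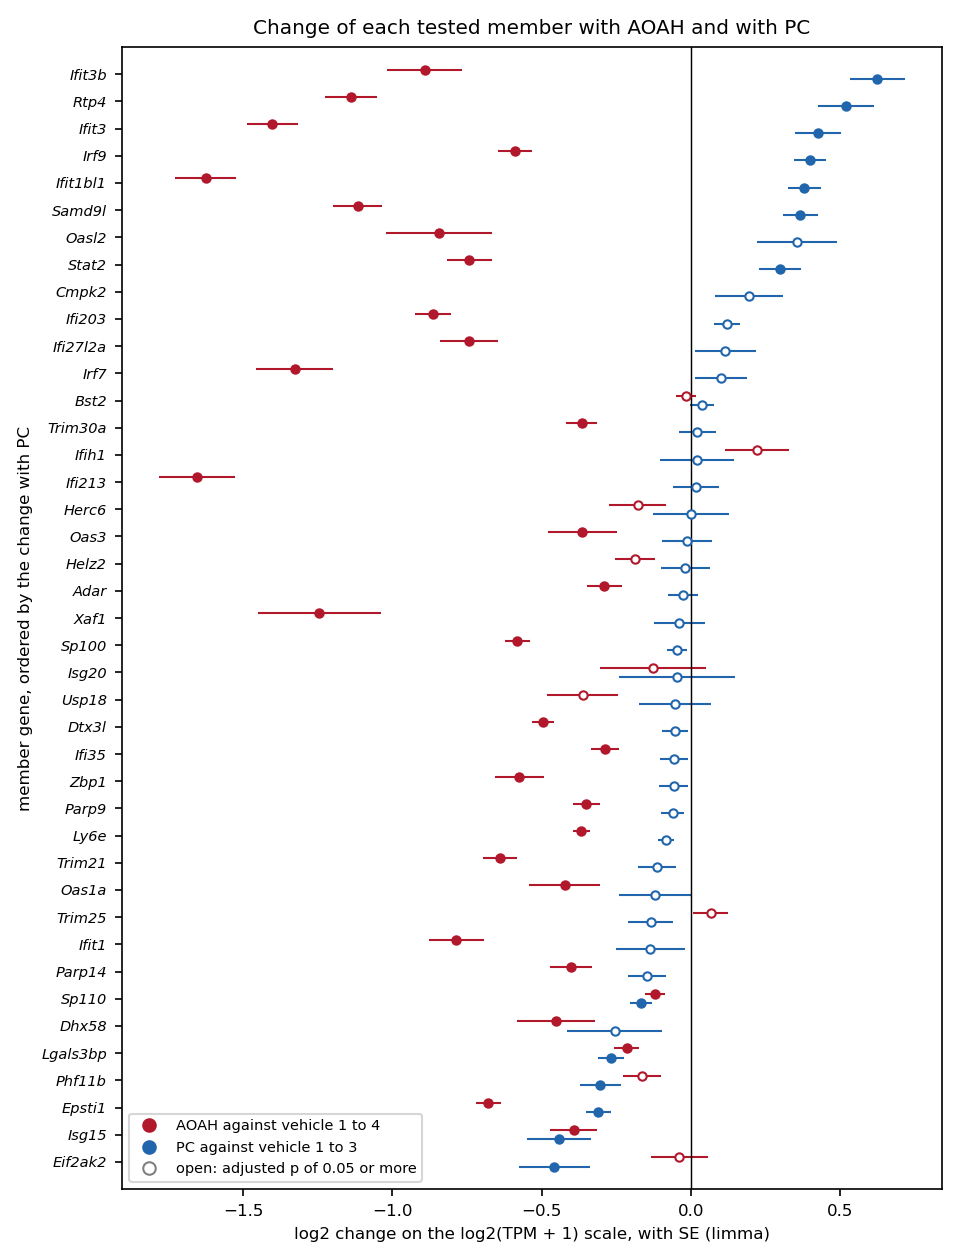
Log2 change of each tested member on the log2(TPM + 1) scale (x axis; points with SE bars) with AOAH (red) and PC (blue), ordered by the change with PC; open points were not called. Red filled points lie left of zero in 31 members, and blue filled points lie right of zero in 7 and left of it in 6.

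The other genes of the pathway were taken from lists that were, like the members, drawn up with earlier results known. Of 21 interferon genes, 3 were in the table, and only Ifng, the interferon of activated CD8+ T cells, was tested. Ifng was at 1480.2, 1556, 1408 and 1467 TPM in AOAH 1 to 4, 1623, 1339.7, 1644 and 1357 in vehicle 1 to 4 and 1496, 1548 and 1425 in PC 1 to 3. All groups overlapped, and the changes were -0.01 (adjusted p = 0.959) with AOAH and -0.04 (adjusted p = 0.785) with PC. Ifnb1 averaged 0.03 TPM in AOAH libraries and 0 in vehicle, and Ifnz stayed at or below 0.19 TPM. Of 22 receptor and signalling genes tested, 9 were called lower and 3 higher with AOAH, and 1 lower and 6 higher with PC. Over all genes the shares were 12.1% lower and 13.1% higher with AOAH and 11.2% lower and 8.27% higher with PC. Irf1, a factor induced by interferon gamma, changed by -0.48 (adjusted p = 3.00e-05) with AOAH and -0.05 (adjusted p = 0.314) with PC. Of the chains of the type I receptor, Ifnar1 changed by -0.41 (adjusted p = 0.000599) with AOAH and 0.16 (adjusted p = 0.0739) with PC. The other chain, Ifnar2, had changes of -0.17 (adjusted p = 0.0628) with AOAH and -0.01 (adjusted p = 0.928) with PC. For Ifngr1, the binding chain of the interferon gamma receptor, the changes were -0.73 (adjusted p = 0.000104) with AOAH and 0.56 (adjusted p = 0.00237) with PC. Socs3, a feedback inhibitor of cytokine receptors, changed by -0.72 (adjusted p = 0.000104) with AOAH and 0.08 (adjusted p = 0.473) with PC, and Irf8, a factor also induced by T cell activation, by 0.30 (adjusted p = 0.00064) with AOAH and 0.13 (adjusted p = 0.0402) with PC.

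Of 18 upstream sensing genes tested, 5 were called lower and 0 higher with AOAH (12.1% and 13.1% of all genes), and 4 lower and 4 higher with PC (11.2% and 8.27% of all genes). Samhd1, which depletes the nucleotides that retroviruses need, changed by -0.88 (adjusted p = 1.23e-05) with AOAH and 0.21 (adjusted p = 0.00276) with PC. Rigi, the sensor RIG-I, changed by -0.79 (adjusted p = 0.000101) with AOAH and 0.23 (adjusted p = 0.0798) with PC. Sting1, the adaptor of cytosolic DNA sensing, changed by 0.05 (adjusted p = 0.459) with AOAH and -0.21 (adjusted p = 0.0259) with PC. Rnaseh2b, a subunit of the nuclease that clears ribonucleotides from DNA, changed by 0.11 (adjusted p = 0.0959) with AOAH and -0.37 (adjusted p = 0.00237) with PC. For Trex1, a DNA exonuclease, the changes were 0.08 (adjusted p = 0.462) with AOAH and 0.31 (adjusted p = 0.0346) with PC. A further list of 100 interferon-stimulated genes outside the 46 had 96 in the table. With AOAH 58 of 81 tested were called lower and 4 higher, with a median change of -0.32, and with PC 18 of 82 were called lower and 11 higher, with a median of -0.03, beside the same shares of all genes. Gbp8, a guanylate-binding protein, changed by -1.34 (adjusted p = 3.13e-05) with AOAH and 0.15 (adjusted p = 0.0746) with PC, and Uba7, the enzyme that activates ISG15 for conjugation, by -1.28 (adjusted p = 8.59e-05) with AOAH and 0.09 (adjusted p = 0.551) with PC. Shisa5 was the most abundant of that list, at 1038 to 1235 TPM in AOAH, 1646 to 1689 in vehicle and 1864 to 2038 in PC libraries, and Psmb8, an immunoproteasome subunit, changed by -0.23 (adjusted p = 0.00369) with AOAH and -0.15 (adjusted p = 0.0107) with PC. Mov10, an RNA helicase, changed by -0.41 (adjusted p = 0.00264) with AOAH and -0.85 (adjusted p = 0.000774) with PC and Slfn9 by 0.21 (adjusted p = 0.31) with AOAH and -0.61 (adjusted p = 0.0127) with PC.

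The authors' deposited table for AOAH, made with DESeq2 from the same libraries, gave 28 of the 46 members lower, 0 higher, 16 not called and 2 without an adjusted p; 27 were called lower in both. Oas1a, Isg15, Dhx58 and Sp110 were called here and not in the authors' deposited table, and Helz2 was called only there. For PC the authors' deposited table gave 3 members lower and 6 higher, all 9 of them also called here in that direction, with 33 not called and 4 without an adjusted p. Ifit3b, Isg15, Sp110 and Phf11b were called for PC here and not in the authors' deposited table. Over all genes the authors' deposited table held 1084 lower and 1055 higher of 12492 for AOAH and 850 and 638 of 11109 for PC.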

How the data were processed

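RNA of 11 libraries (4 AOAH, 3 PC, 4 vehicle) was sequenced from polyadenylated RNA with ERCC spike-ins added and molecular identifiers in the primers, per the labels' protocols. The authors deposited 1 table of log2 values of TPM + 1 per gene symbol, with RSEM, mm39 and DESeq2 named in the submitters' processing notes, no versions given; back-transformed TPM summed to 998406 to 998655 per library. The aligner, the annotation and any use of the identifiers were not given in the sources used here. The authors' deposited DESeq2 tables give, among other columns, a log2 fold change, a Wald test score and a p-value before and after adjustment. The repertoire table was not used here, and results for some genes are not reported here.

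Tests used limma 3.58.1 in R 4.3.3 with trend and robust options, two-sided, after a filter at a mean of 1 TPM: AOAH against vehicle 1 to 4, PC against vehicle 1 to 3 (the label of vehicle 4 does not name the PC comparison) and AOAH against PC. The script was tested on simulated data. Members, roles and pathway lists were chosen with earlier results of these data known. Library values were given for the 2 most abundant members of each role, the 4 largest changes of each comparison with vehicle, members called in opposite directions in the 2 comparisons, and members called against the direction of most called members of a comparison. The batch labels pair libraries across groups; deviations from group means correlated at -0.00332 on average in 10 same-batch pairs (-0.0794 to 0.118) and 0.00114 in 30 other pairs. Alternatives were a batch block, pseudocounts of 0.1 and 5, no filter, a filter of 5 TPM, TMM and quantile scaling, 1 fit over all 11 libraries, array weights, batches 1 to 3, vehicle 4 included for PC, and each library left out in turn. Promoters came from RefSeq (GRCm38.p6), with windows for 36 of 46 members; transcript stretches came from GENCODE M21.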

Additional observations from a re-analysis of the deposited data

Results flagged for a closer look

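Within groups of 4 libraries, 92 member-by-group sets were examined for a library far from the other 3, and 6 were picked out, where chance alone picks about 1 in 20. Ifit3b was lowest in AOAH 2, at 0.28 TPM against 0.61 to 0.66 in the other AOAH libraries, and highest in vehicle 4, at 2.24 TPM against 1.73 to 1.78. Isg15 was highest in AOAH 3, at 11.3 TPM against 9.27 to 9.61. Herc6 was lowest in AOAH 2, at 5.48 TPM against 6.70 to 6.91. Mx1 was highest in vehicle 2, at 2.30 TPM against 0.64 to 0.84, and Ifi44 was highest in vehicle 4, at 0.24 TPM against 0.10 to 0.12; neither gene passed the filter on low values.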

How the results depend on the processing

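With AOAH, 26 of the 31 called members were called lower in each of the 18 alternative settings that tested them (Ifit1, Ifit3b and Oasl2 had no test under the 5 TPM filter), and the count ran from 27 to 30 with 1 library left out and was 0 for higher in every setting. The median change of -0.44 became -0.54 with a pseudocount of 0.1 and -0.33 with 5, by the construction of that scale, and ran from -0.48 to -0.38 with 1 library left out. With PC, 8 of the 13 called members were called in each of the 16 settings that tested them (Ifit3b had no test at 5 TPM). The 6 lower calls became 2 with no filter (more genes tested) and 2 to 4 with 1 library left out, the 7 higher calls 6 to 7, and the median of -0.04 became -0.0141 with quantile scaling and -0.0525 to -0.00876 with 1 library left out. Between AOAH and PC, 24 of 28 called members were called in each of the 16 settings that tested them (Ifit1, Ifit3b and Oasl2 had no test at 5 TPM); lower calls ran from 25 to 28 and the median from -0.42 to -0.33 with 1 library left out, and the median was -0.29 with a pseudocount of 5. The single higher call became 0 with no filter, 0 with the batch block, 2 with quantile scaling and 0 to 2 with 1 library left out. Where no cause is named, the cause was not tested. In the batch-blocked fit the AOAH calls of Oas1a and Sp110, the PC calls of Eif2ak2, Phf11b and Stat2, and the direct calls of Eif2ak2, Helz2, Oas3 and Parp14 were lost; the pairing changed no other call. With no filter the AOAH calls of Dhx58, Oas3 and Sp110 and the PC calls of Eif2ak2, Isg15, Phf11b, Sp110 and Stat2 were lost, with quantile scaling the AOAH calls of Dhx58, Oas1a and Oas3, and in batches 1 to 3 alone those of Dhx58, Isg15, Oas1a, Oas3 and Sp110. No called value reversed. Depth is unknown, so where low members such as Mx1, Rsad2, Oas2 and Ifi44 were not called, that sets no limit on a change.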
